A study of Homo sapiens with 12 samples.

Results

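The comparison described here is that of KO414 and KO313, a pair of p53 knockout clones of MCF10A, a mammary epithelial cell line of human origin that is immortalized and does not form tumors. Of the 12 RNA-seq libraries of the series, 4 are from KO414 and 4 from KO313. The 4 wild-type (WT) libraries show which clone had moved away from the parental line. They also enter the choice of tested genes and the estimate of spread behind the p-values. All groups grew in the same medium with horse serum, EGF, insulin, hydrocortisone and cholera toxin, at fewer than 20 passages. Each clone was picked from transfected cells that had been sorted for EGFP and plated sparsely, after transfection with a pair of guide RNAs of its own, and the study checked the loss of p53 protein by immunoblotting. Each line is thus 1 clone, and the guides, the edited alleles and the founding cell cannot be told apart as sources of a difference between them. The study calls the 4 libraries of a group biological repeats. The labels do not say that they came from separate cultures, so the p-values measure the spread between these libraries. Expression values were RPKM, that is, reads divided by the length of the gene and the size of the library. Of 22324 genes with a unique symbol, 12215 reached 0.5 RPKM in at least 4 libraries and were tested.

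p53 is a transcription factor that binds response elements near its target genes and activates cell cycle arrest, DNA repair and apoptosis programs after damage. TP63 and TP73 encode its relatives p63, which maintains basal epithelial cells, and p73. Cells cloned from a single founder also keep any epigenetic or chromosomal state that the founder had.

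The libraries matched the labelled cell type. All 7 basal markers passed the filter, and their summed level was 1123 to 1210 RPKM in KO414, 1233 to 1364 RPKM in KO313 and 1675 to 1912 RPKM in WT. Of 5 luminal markers 4 passed, with sums of 322 to 382 RPKM in KO414, 304 to 342 RPKM in KO313 and 339 to 351 RPKM in WT. Of 6 fibroblast, 5 immune and 4 endothelial markers, 1, 1 and 0 passed, and no sum exceeded 4.30 RPKM in any library. LUM and COL3A1, genes of the fibroblast matrix, were at 0 in all KO414 libraries, as was the endothelial marker PECAM1. The sum of the basal markers was lower in every KO414 library than in every KO313 library, and its part in the differences below was not tested. A single marker made up most of that sum, reaching 960 RPKM in KO414 and 1128 RPKM in KO313. Of the 7 markers, KRT14 and ITGA6 had higher values in KO414 (log2 differences 0.28 and 0.11) and the others lower ones. None of the 7 differed between the clones at an adjusted p under 0.05. Genes above 0 numbered 15600 to 16641 per library.

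Of the 12215 tested genes, 35 (0.287%) differed between the clones by at least 2-fold on the scale of log2(RPKM + 0.5) with an adjusted p under 0.05. Only 6 of them (0.0491% of genes tested) were higher in KO414 and 29 (0.237%) were lower. Without the limit on the fold, 411 genes (3.36%) passed, of which 140 (1.15%) were higher and 271 (2.22%) were lower. For scale, 234 genes (1.92%) passed both limits in KO414 against WT and 175 (1.43%) in KO313 against WT. In all 35 genes the 4 KO414 libraries lay wholly outside the range of the 4 KO313 libraries, as they did in 1016 (8.32%) of the genes tested. The count at the fold of 2 depends on the pseudocount, since the log scale understates changes of low genes, and was 100 with a pseudocount of 0.1 and 14 with a pseudocount of 1, and the share higher in KO414 was 17.1%, against 22% and 28.6% with these pseudocounts. At any fold it was 515 without KO414 replicate 1, 270 without KO313 replicate 2 and 273 without KO313 replicate 4. The median difference over all genes tested was -0.004.

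**Figure D1:**
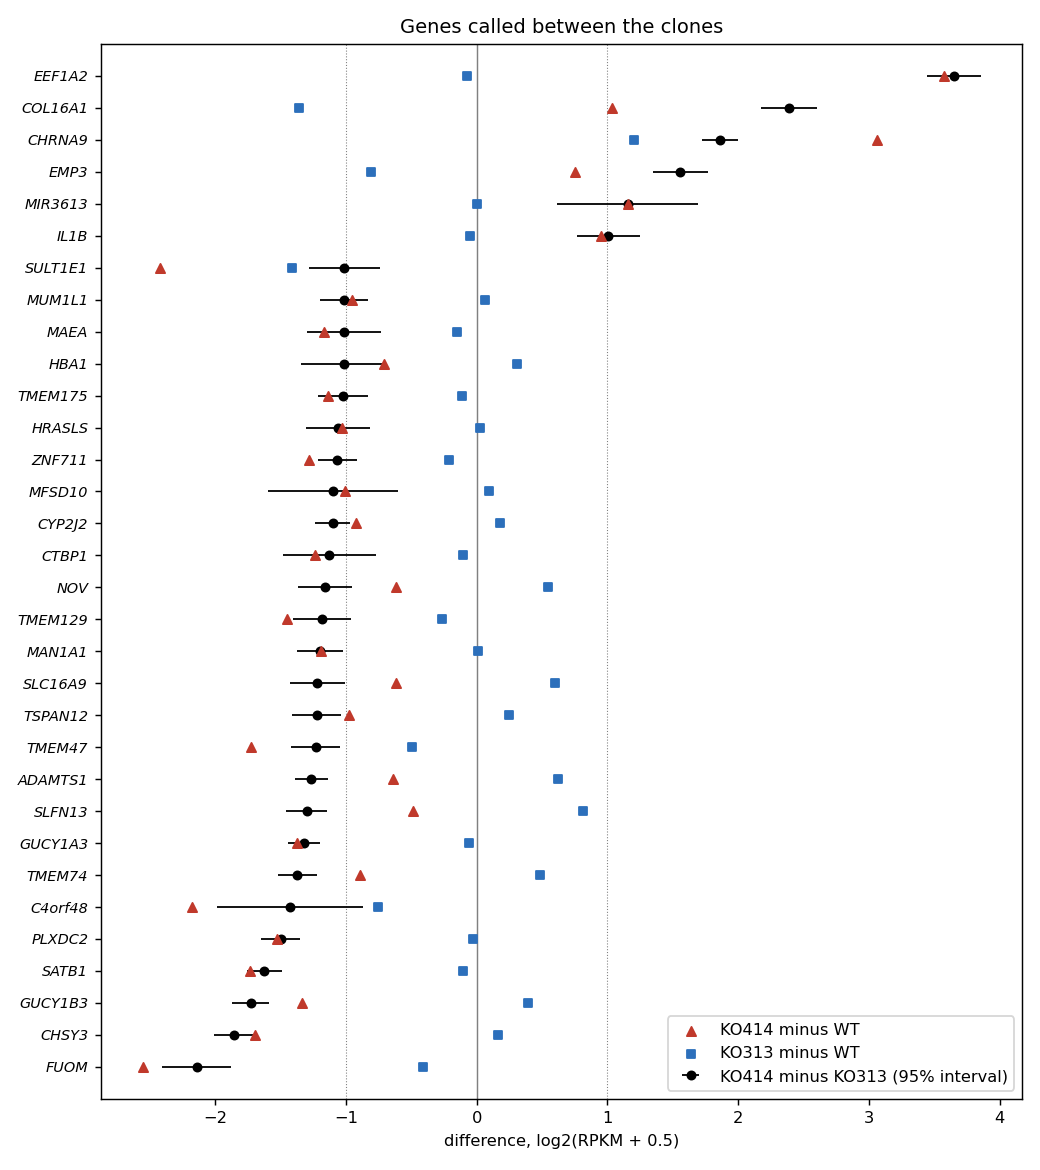
Differences of 32 of the 35 called genes on the scale of log2(RPKM + 0.5) (horizontal axis), as KO414 minus KO313 with the 95% interval (black), KO414 minus WT (red triangles) and KO313 minus WT (blue squares). The 6 genes at the top are higher in KO414, and for most genes the blue square lies closer to 0 than the red triangle.

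The largest difference was a gain of EEF1A2 in KO414. This gene encodes the isoform of the translation elongation factor eEF1A that is normally found in neurons and muscle. It reached 33.7, 24.3, 26.4 and 28.7 RPKM in KO414, against 2.06, 1.6, 1.67 and 1.82 RPKM in KO313 and 1.83, 1.78, 1.91 and 2.09 RPKM in WT. KO414 stood alone, with KO313 and WT overlapping, and the clones differed 15.8-fold (log2 difference 3.65 ± 0.10 SE, limma adjusted p = 3.52e-10). The similar and far more abundant EEF1A1, with which it could share reads, was 1959 ± 111 RPKM in KO414 and 2001 ± 105 RPKM in KO313 (SD, n = 4 each).

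COL16A1, a fibril-associated collagen gene, parted in both directions from WT. It was 4.58, 3.28, 3.40 and 3.67 RPKM in KO414, against 0.35, 0.266, 0.232 and 0.371 RPKM in KO313 and 1.77, 1.54, 1.40 and 1.54 RPKM in WT. No group overlapped another, and KO414 was 12.2-fold above KO313 (log2 difference 2.39 ± 0.10 SE, adjusted p = 1.58e-08). EMP3, a small membrane protein of the PMP22 family, had the same order, with 42.9, 33.6, 33.3 and 33.1 RPKM in KO414, against 10.3, 11.3, 12.3 and 13.2 RPKM in KO313 and 18.3, 22.3, 21.4 and 21.7 RPKM in WT. KO414 was 3.03-fold above KO313 (log2 difference 1.56), and replicate 1 was the highest of the KO414 libraries for EEF1A2, COL16A1 and EMP3.

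CHRNA9, a nicotinic acetylcholine receptor subunit gene, was above WT in both clones, but further in KO414. It was 10.6, 12.6, 12.1 and 12.02 RPKM in KO414, against 3.08, 2.70, 2.86 and 2.97 RPKM in KO313, and no WT library exceeded 1.03 RPKM. KO414 was 4.08-fold above KO313 (log2 difference 1.86 ± 0.06 SE). IL1B, the gene of the inflammatory cytokine interleukin-1 beta, was 9.64, 8.42, 10.7 and 10.3 RPKM in KO414, against 3.79, 4.30, 5.59 and 4.86 RPKM in KO313. WT, at 4.07 to 5.19 RPKM, overlapped with KO313, and the clones differed 2.11-fold (log2 difference 1.01, adjusted p = 0.000102). The sixth gene, the microRNA gene MIR3613, rested on 2 to 5 scaled reads per library in KO414 and 0 to 1 in KO313. It reached the filter only in KO414, the group where it is high. Its call was lost without KO313 replicate 2 or KO313 replicate 4 and with a pseudocount of 0.1 (adjusted p = 0.0644) or 1.

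The 29 genes lower in KO414 included several that were near 0 there and not in KO313 and WT. A switch-like rule, with a mean of at least 1 RPKM in one clone, below 0.1 RPKM in the other and no overlap, held for SATB1, PLXDC2, CHSY3 and C4orf48, all lost in KO414, and for no gene lost in KO313. SATB1, which encodes a chromatin organizer, was 0.0221, 0.0316, 0.0158 and 0.0285 RPKM in KO414, against 1.13, 1.13, 1.04 and 1.17 RPKM in KO313 and 1.25, 1.38, 1.25 and 1.10 RPKM in WT. The means of the clones differed 45.6-fold. CHSY3, a chondroitin sulfate synthase gene, was 0.0703, 0.0786, 0.0538 and 0.0911 RPKM in KO414, against 1.64, 1.59, 1.49 and 1.59 RPKM in KO313, 21.5-fold lower. PLXDC2, a gene of a plexin domain protein of the cell surface, was at most 0.115 RPKM in KO414 and at least 1.06 RPKM in KO313. C4orf48 was at most 0.124 RPKM in KO414 and varied between 0.371 and 2.16 RPKM in KO313. With looser limits the rule held for 8 genes (means of 1 and 0.2 RPKM) and for 13 (means of 0.5 and 0.1 RPKM). Of the 13, only ZNF585A, a zinc finger gene, was the one high in KO414, at 0.507 ± 0.0608 RPKM against 0.0972 ± 0.0192 in KO313 and 0.684 ± 0.128 in WT.

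Both subunits of soluble guanylate cyclase, the receptor for nitric oxide, were lost in KO414. GUCY1B3 was 0.238, 0.190, 0.195 and 0.167 RPKM in KO414, against 1.77, 1.99, 1.72 and 1.79 RPKM in KO313 and 1.28, 1.23, 1.15 and 1.41 RPKM in WT (log2 difference -1.73 ± 0.07 SE, limma adjusted p = 7.18e-09). Its partner GUCY1A3, a neighbor on chromosome 4, was at 0 in KO414 replicates 1 and 2 and held 1 scaled read in each of the others, against 0.698 to 0.819 RPKM in KO313. ZNF711, a zinc finger gene of the X chromosome, was at most 0.0105 RPKM in KO414 and 0.507 to 0.622 RPKM in KO313.

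The largest fitted loss was that of FUOM, a fucose mutarotase gene, at 0.238, 0.0216, 0.0649 and 0.130 RPKM in KO414, against 1.99, 2.25, 2.62 and 1.95 RPKM in KO313 and 2.49, 3.14, 3.31 and 3.44 RPKM in WT (log2 difference -2.14 ± 0.12 SE, adjusted p = 2.33e-07). The KO414 libraries lay below all others, and the means of the clones differed 19.4-fold.

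**Figure D2:**
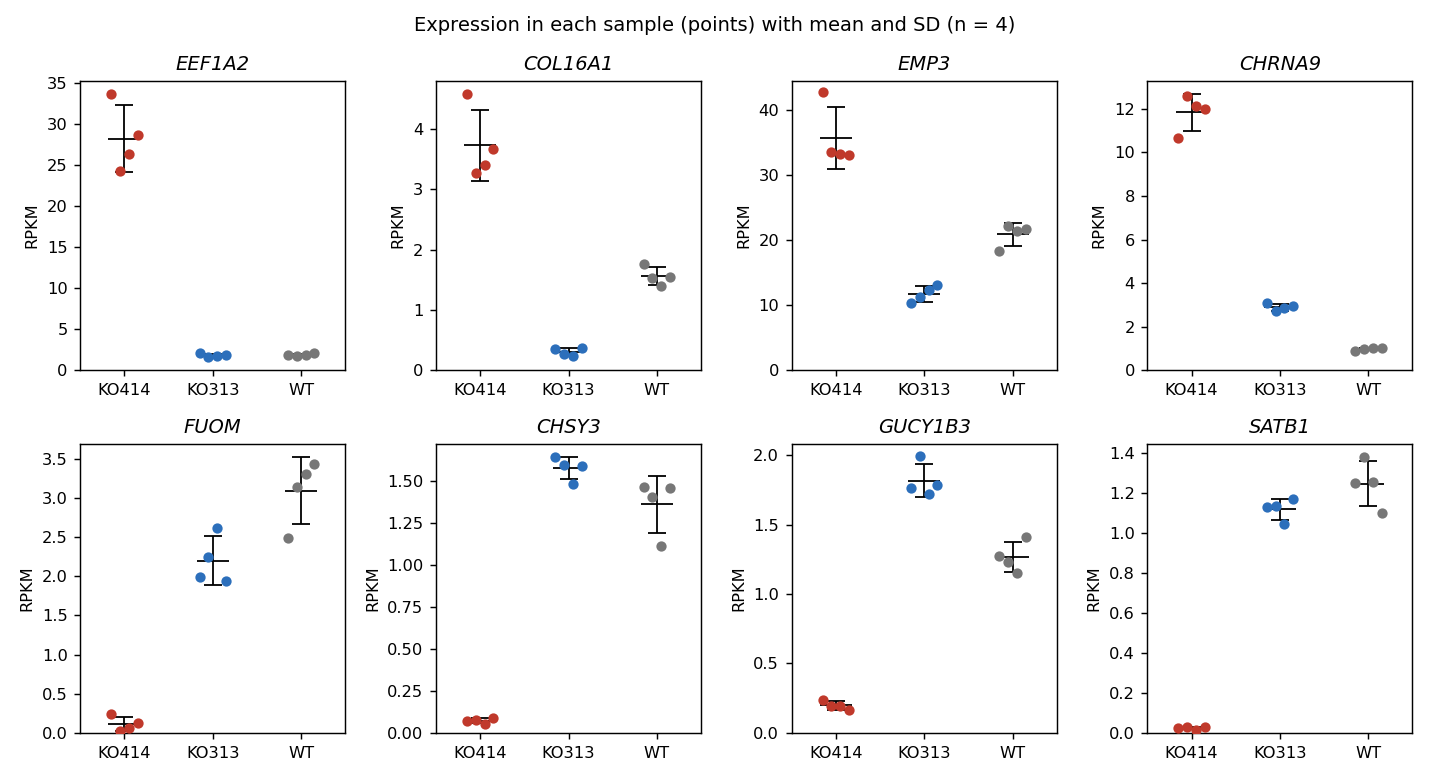
Expression of 8 genes in RPKM (vertical axes, from 0) in each of the 4 samples of KO414, KO313 and WT, with the mean and SD in black. EEF1A2 lies between 24.3 and 33.7 RPKM in KO414 and at or below 2.09 RPKM in every other sample, and SATB1 and CHSY3 are at or below 0.0911 RPKM in KO414 and above 1 RPKM in KO313 and WT.

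Among the other called genes, ADAMTS1, a secreted metalloprotease gene, was 0.0488 ± 0.00802 RPKM in KO414 and 0.821 ± 0.0740 RPKM in KO313 (16.8-fold lower). WT was 0.358 ± 0.0223 RPKM, so ADAMTS1 reached the filter of 0.5 RPKM only in KO313, the group where it is high. NOV, the gene of the matricellular protein CCN3, was 0.233 ± 0.0866 RPKM in KO414 and 1.13 ± 0.0661 RPKM in KO313 (4.84-fold lower). TSPAN12, a tetraspanin of the Norrin receptor complex, was 6.28-fold lower and TMEM47, a junction protein gene, 4.51-fold lower. SLC16A9, a monocarboxylate transporter gene, was 0.599, 0.935, 0.991 and 0.968 RPKM in KO414, against 2.35, 2.67, 2.84 and 2.85 RPKM in KO313. WT lay between the clones, at 1.47 to 1.69 RPKM.

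SULT1E1, the estrogen sulfotransferase gene, was 0.715, 0.991, 0.686 and 0.658 RPKM in KO414, against 2.44, 2.49, 1.87 and 1.48 RPKM in KO313 and 6.35, 6.37, 6.34 and 5.89 RPKM in WT. It was the 1 gene lower in KO414 that passed both limits in the same direction in each clone against WT. CYP2J2, an arachidonate epoxygenase gene, was 3.30-fold lower, MAN1A1, a Golgi mannosidase gene, 3.89-fold lower and HRASLS, a phospholipase family gene, 4.93-fold lower. SLFN13, an RNase of the Schlafen family, was 2.57 ± 0.299 RPKM in KO414, 7.05 ± 0.319 RPKM in KO313 and 3.797 ± 0.115 RPKM in WT (SD, n = 4 each). HBA1, an alpha-globin gene, was 2.64-fold lower, and its near-identical copy HBA2, which can share its reads, 2.74-fold lower (log2 difference -0.99, just under the limit of 1). TMEM74 was 8.19-fold lower and MUM1L1 12.3-fold lower.

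Most of the called differences were departures of KO414 from WT. Of the 35 genes, 20 passed both limits against WT only in KO414 (2 higher, 18 lower), none only in KO313, 2 in both clones in the same direction (CHRNA9 and SULT1E1), 1 in opposite directions (COL16A1) and 12 in neither. Without the fold limit against WT, 19 differed from WT only in KO414, 7 in both in the same direction and 9 in opposite directions. Among the 9 were COL16A1 and EMP3, higher in KO414 and lower in KO313 than WT, and GUCY1B3, TMEM74, SLFN13, ADAMTS1, SLC16A9 and NOV, for which the order was the reverse. Among the 411 genes that passed at any fold change, 195 differed from WT only in KO414, 73 only in KO313, 106 in both in the same direction, 22 in opposite directions and 15 in neither. All these classes use the same WT libraries for both clones, and a gene past the limit in 1 clone is assigned by the limit alone.

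Of the targets that p53 is known to activate, about the same share passed between the clones as of all genes (3.92% beside 3.36%). Of 51 tested members of a list of 55, 2 were higher in KO414, none lower and 49 did not pass (at an unadjusted p under 0.05, 3 were higher and 3 lower, and with limma-voom 1 was lower), with a median log2 difference of 0.016 beside -0.004 over all genes. Against WT the list's median was -1.09 in KO414 and -1.07 in KO313, and 44 of the 51 members were lower than WT in both clones. The share of all genes that were lower in both was not counted. Because the list was chosen with earlier results of these data known, the count against WT is only a description. The 95% interval of the difference between the clones lay within 1 on the log2 scale for all 51 members and within 0.5 for 47, as it did for 97.9% and 90.7% of all genes tested. SULF2, an extracellular sulfatase gene, was 0.956 ± 0.154 RPKM in KO414 and 0.549 ± 0.0884 RPKM in KO313 (log2 difference 0.47, limma adjusted p = 0.0116), and 7.95 ± 0.731 RPKM in WT. TP53I11 was 6.42 ± 0.380 RPKM in KO414, 4.89 ± 0.538 RPKM in KO313 and 7.63 ± 0.582 RPKM in WT (adjusted p = 0.0194). CYFIP2, an actin regulator gene, had the next smallest p, at 1.01 ± 0.0674 RPKM in KO414 and 1.32 ± 0.0970 RPKM in KO313 (adjusted p = 0.0659). Over the list, log2 differences ran from -0.27 for CYFIP2 to 0.47 for SULF2. Of 2 well-known targets named after their values were seen, MDM2, the ubiquitin ligase gene that limits p53, was 10.3 ± 0.922 RPKM in KO414 and 10.3 ± 1.44 RPKM in KO313. The other, BAX, a pro-apoptotic gene, was 23.5 ± 3.21 and 21.9 ± 1.59 RPKM in the same order. The 95% interval of their log2 difference was -0.25 to 0.26 for MDM2 and -0.12 to 0.30 for BAX.

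The relatives of p53 were measured as well. TP73 was low in all groups, at 0.324, 0.313, 0.332 and 0.238 RPKM in KO414, against 0.0793, 0.0865, 0.0504 and 0.112 RPKM in KO313 and 0.753, 0.541, 0.469 and 0.634 RPKM in WT. KO414 lay between KO313 and WT without overlap, 3.68-fold above KO313 (exact two-sided permutation p = 0.0286, the smallest that the 70 splits of 4 and 4 libraries allow). It was below the filter of the genome-wide test, and its isoforms are not separated in these values. TP63 was 8.41 ± 1.32 RPKM in KO414 and 9.49 ± 0.619 RPKM in KO313 (adjusted p = 0.572).

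**Figure D3:**
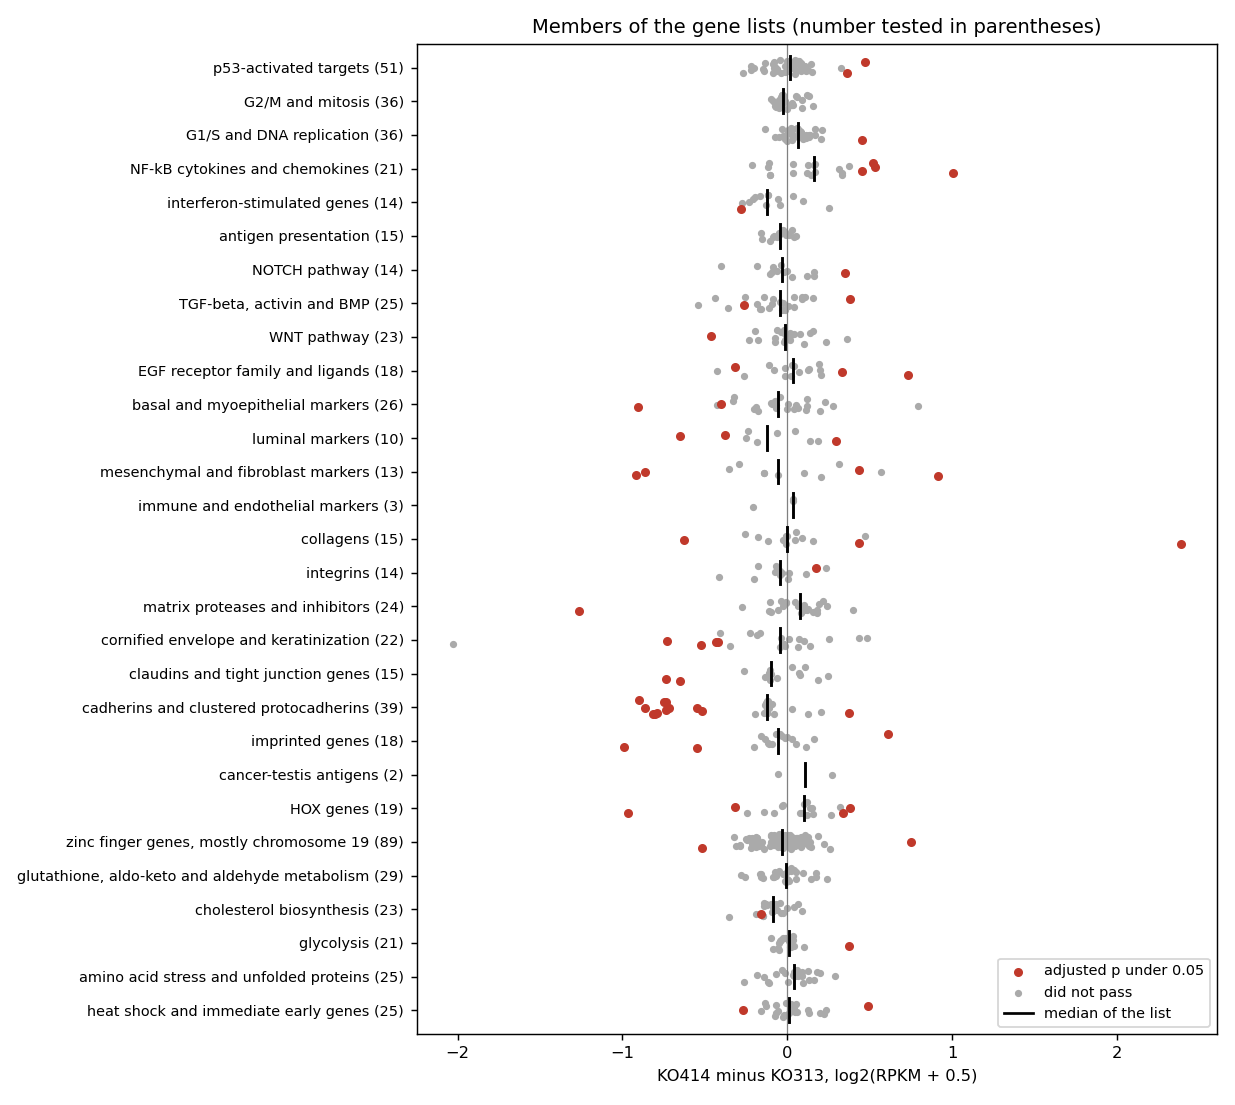
Difference of KO414 minus KO313 on the scale of log2(RPKM + 0.5) (horizontal axis) for each tested member of 29 gene lists (rows), with members past an adjusted p of 0.05 in red and the list's median as a black bar. Most p53 targets and cell cycle genes lie close to 0, as do most of all genes tested. The cadherins and clustered protocadherins have 11 red members on the left, most of them PCDHA entries that share reads and passed the filter only through KO313.

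Of the lists, that of NF-kB cytokines and chemokines holds secreted signals and also members that are not secreted. It had 4 of 21 tested members higher in KO414 and none lower. The share was 19.05%, beside 1.15% of all genes higher in KO414 and 3.36% in either direction. The list's median log2 difference was 0.162. Besides IL1B, these were CXCL1, a neutrophil chemokine gene, at 14.5 ± 1.37 RPKM in KO414 and 9.96 ± 1.25 RPKM in KO313 (log2 difference 0.52, limma adjusted p = 0.00667), and CSF3, the gene of the growth factor G-CSF, at 16.1 ± 3.15 and 10.8 ± 0.626 RPKM in the same order (0.53, adjusted p = 0.0125). The fourth was TNFAIP3, a feedback inhibitor gene of NF-kB (0.45). Of 18 genes of the EGF receptor family and its ligands, EREG and HBEGF, both genes of EGF receptor ligands, were higher and LRIG1, an inhibitor of the receptor, was lower, with a share of 16.67% and a median of 0.034 over the list. Shares above that of the NF-kB list, in both directions, were those of the mesenchymal list and the cadherins (30.77% each), luminal markers (3 of 10), HOX genes (21.05%) and collagens (20.0%). EREG was 6.91, 10.9, 8.78 and 9.61 RPKM in KO414, against 5.78, 5.08, 4.88 and 5.01 RPKM in KO313 (log2 difference 0.73, adjusted p = 0.0012), and WT, at 4.604 to 5.15 RPKM, overlapped with KO313.

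The genes of the cornified envelope and of tight junctions that passed were all lower in KO414. Over 22 genes of the cornified envelope the median was -0.044. Of these, 4 were lower and none higher (18.18%, beside 2.22% of all genes lower and 3.36% in either direction). They were TGM1, the transglutaminase that crosslinks the envelope, PPL and DSC2, genes of desmosomal proteins, and KRTDAP, and 18 did not pass. Of 15 claudins and tight junction genes (13.33% passed, median -0.098), CLDN1 (1.75 ± 0.269 RPKM in KO414, 3.30 ± 0.842 in KO313) and CLDN4 (4.08 ± 1.00 and 6.58 ± 0.490 RPKM) were lower. DSC3, a desmosomal cadherin of basal cells, was 2.84, 4.01, 4.11 and 3.65 RPKM in KO414, against 7.48, 7.49, 6.81 and 7.05 RPKM in KO313 and 10.8 to 12.3 RPKM in WT (log2 difference -0.90, adjusted p = 5.03e-05). It was 1 of 2 basal and myoepithelial markers of 26 that passed, with MME (7.69%, median -0.055). Of 10 luminal markers (median -0.124), EPCAM was higher and GATA3 and CLDN4 were lower.

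Mesenchymal and matrix genes moved in both directions. FN1, the fibronectin gene, was 9.95, 16.8, 15.03 and 14.96 RPKM in KO414, against 6.81, 7.91, 7.15 and 6.84 RPKM in KO313 (log2 difference 0.91, adjusted p = 0.000662), and COL6A3, a collagen gene, was higher by 0.43. In contrast LOX, the lysyl oxidase gene that crosslinks collagen, was 0.710 ± 0.0905 RPKM in KO414 and 1.79 ± 0.155 RPKM in KO313, and CDH2, the N-cadherin gene, 0.393 ± 0.0552 and 1.12 ± 0.127 RPKM. These were 4 of 13 tested members of the mesenchymal list, whose median was -0.054. Among 15 collagens (median -0.004), COL16A1 and COL6A3 were higher and COL12A1 lower (log2 difference -0.63). Of 14 integrins only ITGB5 passed (0.17), and of 24 matrix proteases and inhibitors only ADAMTS1, which reached the filter only in KO313.

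In the other lists 0 to 2 genes passed, except for the HOX genes and the imprinted genes described further below, and the medians of these lists lay between -0.12 and 0.11. Among cell cycle genes, none of 36 G2/M genes passed (2 higher at an unadjusted p under 0.05, 0 with limma-voom), and 1 of 36 G1/S genes, E2F2, a transcription factor gene of S phase entry, was higher (0.45). None of 29 glutathione and aldo-keto genes passed (1 higher and 4 lower at an unadjusted p under 0.05, 0 with limma-voom) and none of 25 amino acid stress genes (4 higher and 2 lower unadjusted, 0 with limma-voom). The same held for 15 antigen presentation genes and 3 immune and endothelial markers (0 unadjusted and 0 with limma-voom in both) and for 2 cancer-testis genes (1 higher unadjusted, 0 with limma-voom). In the NOTCH list NRARP was higher (1 of 14), in the WNT list FZD1 was lower (1 of 23), and in the interferon list EPSTI1 was lower (1 of 14). In the TGF-beta list FST was higher and TGFBI lower (of 25), in cholesterol biosynthesis INSIG1 was lower (1 of 23), and in glycolysis ENO2 was higher (1 of 21). Of 25 heat shock and immediate early genes, FOS was higher and DUSP1 lower. Of 89 zinc finger genes, ZNF585A was higher and ZNF302 lower. Of 19 HOX genes 4 passed (21.05% beside 3.36% of all genes). HOXB4 was 0.141 ± 0.0411 RPKM in KO414 and 0.754 ± 0.0986 RPKM in KO313 (log2 difference -0.97, adjusted p = 0.000125) and HOXA11 was lower, while HOXB6 and HOXB9 were higher.

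Imprinted genes, which are read from the copy of 1 parent, gave 3 passes of 18 (16.67% beside 3.36% of all genes), with a median of -0.058. SGCE, the epsilon-sarcoglycan gene, was 3.51, 4.05, 3.66 and 3.42 RPKM in KO414, against 8.03, 7.68, 8.20 and 7.09 RPKM in KO313 and 7.18 to 7.77 RPKM in WT. The KO414 libraries were all below the rest (log2 difference -0.99, adjusted p = 6.29e-07). PEG10, the neighbor of SGCE on chromosome 7, was 19.2 ± 3.73 RPKM in KO414 and 27.9 ± 1.502 RPKM in KO313, and the noncoding RNA gene H19 was higher in KO414 by 0.61 (adjusted p = 0.0452).

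In gene order along the chromosomes, windows of 25 tested genes were searched for a median log2 difference of at least 0.3 in size with 80% of signs alike. Of 11515 windows, 33 (0.287%) passed, and they merged into runs at 2 places, the end of the short arm of chromosome 4 and the protocadherin cluster of chromosome 5. Both were lower in KO414, and no run was higher.

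**Figure D4:**
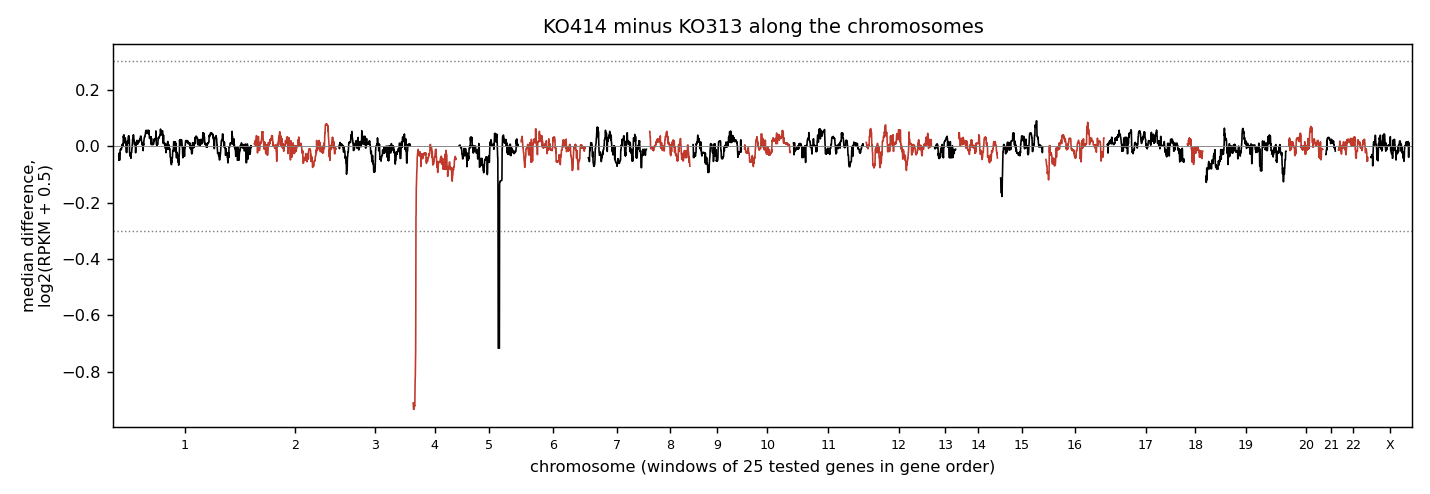
Median difference of KO414 minus KO313 on the scale of log2(RPKM + 0.5) (vertical axis) in windows of 25 tested genes along the chromosomes (horizontal axis, alternating colors, dotted lines at the limits of 0.3). Windows at the start of chromosome 4 and in chromosome 5 fall below the lower limit, and no window exceeds the upper limit.

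On chromosome 4 the run began with ZNF595, the first tested gene, and held 50 genes with a median of -0.76, against -0.75 for KO414 minus WT and -0.03 for KO313 minus WT. Within it the last gene to pass at any fold change was NOP14-AS1, where the stretch described next was ended after the values were seen. In this stretch of 39 tested genes, 37 had lower values in KO414, 33 passed as lower at any fold change and 1, NAT8L, passed as higher. Over the 37 of these genes with a mean of at least 1 RPKM in either clone, the median ratio of KO414 to KO313 was 0.516 (quartiles 0.478 and 0.543). Of the next 39 tested genes, from NOP14 on, 28 still had lower values in KO414, beside 6221 of 12028 genes outside the stretch with a position. Their median ratio was 0.976 (quartiles 0.914 and 0.992, over the 30 with such a mean). NOP14 itself differed by -0.25 (95% interval -0.38 to -0.11). None of the 39 passed (5 lower at an unadjusted p under 0.05, 2 lower with limma-voom). The 10939 genes outside the stretch with a position and a mean of at least 1 RPKM had a median ratio of 1.001 (quartiles 0.957 and 1.042). Relative to the WT mean, the median of the stretch was 0.525, 0.526, 0.480 and 0.516 in the 4 KO414 libraries, against 1.09, 0.979, 0.939 and 0.979 in the KO313 libraries and 0.969 to 1.04 in the WT libraries. All 4 KO414 libraries lay below every KO313 and WT library.

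The genes with the smallest p in the run have different roles. PIGG, an enzyme gene of GPI anchor synthesis, was 3.82, 3.88, 3.69 and 3.89 RPKM in KO414, against 7.78, 7.84, 7.93 and 8.20 RPKM in KO313 and 7.70 to 8.06 RPKM in WT (log2 difference -0.97, adjusted p = 2.85e-08). SLBP, which encodes the histone mRNA stem-loop binding protein, was 24.2 ± 1.30 RPKM in KO414, 46.6 ± 1.56 RPKM in KO313 and 38.2 ± 1.36 RPKM in WT. ADD1, a membrane skeleton gene, was 12.2 ± 0.577 RPKM in KO414 and 23.5 ± 0.961 RPKM in KO313, and LETM1, a mitochondrial ion transport gene, 10.3 ± 0.387 and 20.0 ± 0.926 RPKM. Of the 35 genes called at the fold of 2, 6 lay here. They were C4orf48, TMEM129, a ubiquitin ligase gene, CTBP1, a transcriptional co-repressor gene, MFSD10, TMEM175, a lysosomal potassium channel gene, and MAEA, a subunit gene of a ubiquitin ligase. Outside the stretch 29 genes passed both limits, and 377 of the 411 passed at any fold change. All 6 called genes of the stretch were highest in replicate 1 of both clones. MFSD10 lost its call without KO414 replicate 2, KO414 replicate 3, KO313 replicate 1 or KO313 replicate 4, and when only the 8 libraries of both clones were fitted (adjusted p = 0.0817). NAT8L, an N-acetylaspartate synthase gene, went the other way, at 1.29, 0.727, 0.859 and 0.795 RPKM in KO414, against 0.247, 0.195, 0.217 and 0.281 RPKM in KO313 and 0.657 to 0.986 RPKM in WT. Gene order was taken from RefSeq on GRCh38 and not from the build of the deposited files, and some entries overlap each other.

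**Figure D5:**
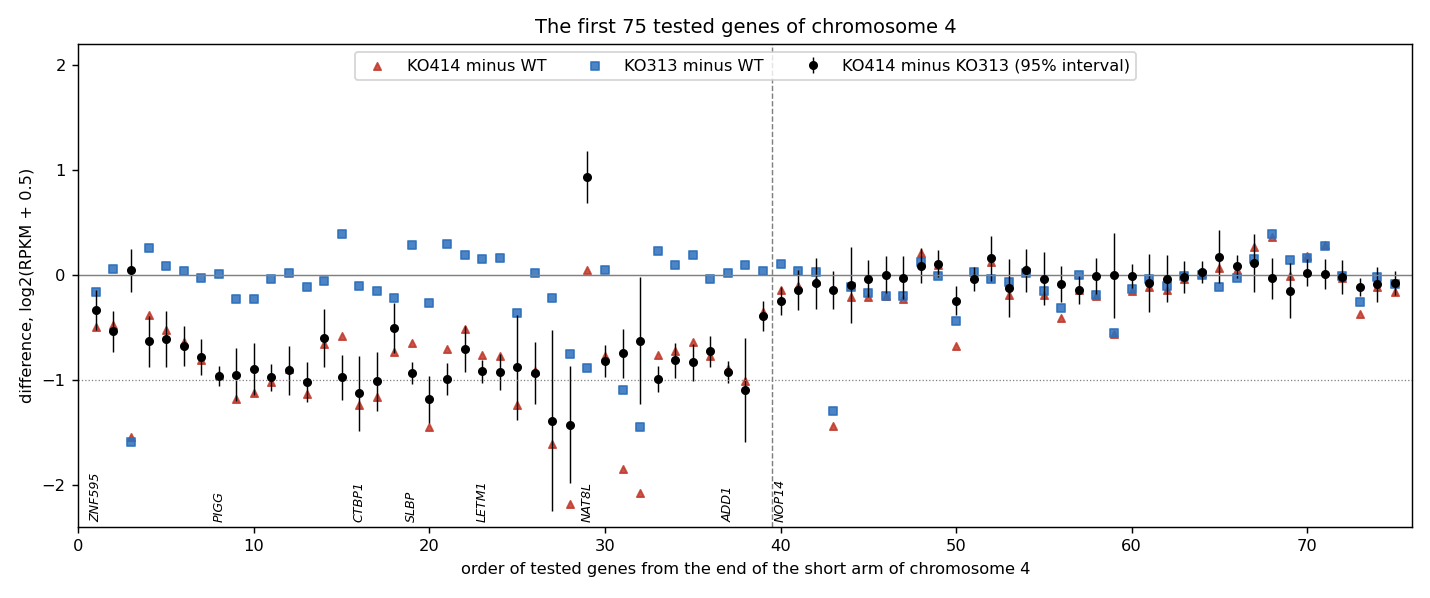
Differences on the scale of log2(RPKM + 0.5) (vertical axis) of the first 75 tested genes of chromosome 4 in gene order (horizontal axis), as KO414 minus KO313 with the 95% interval (black), KO414 minus WT (red triangles) and KO313 minus WT (blue squares), with a dashed line after NOP14-AS1. Left of the dashed line 37 of 39 black points lie below 0. Right of it they lie mostly closer to 0, with more of them below 0 than above.

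On chromosome 5 the run held 31 genes, from WDR55 to PCDHGB4, and the 13 of them that passed at any fold change were all alpha protocadherins. The median over the run was -0.12, against -0.06 for KO414 minus WT and 0.36 for KO313 minus WT. Protocadherins are cell surface adhesion proteins, and the alpha and gamma clusters each splice many first exons to shared last exons, so that reads of a cluster can be counted for several entries and the entries are not independent. All 13 tested PCDHA entries were lower in KO414, with log2 differences of -0.90 to -0.72. Their means were 0.178 to 0.262 RPKM in KO414, 0.636 to 0.925 RPKM in KO313 and 0.231 to 0.319 RPKM in WT, so that KO313 stood above both other groups. The means of KO414 and WT lay under the filter of 0.5 RPKM, so these entries were tested only through KO313, the group where they are high. The shared direction of the 13 entries, and the run that rests on them, therefore depend on that filter. PCDHAC2, for example, was 0.210, 0.272, 0.264 and 0.3003 RPKM in KO414, against 0.954, 1.11, 0.772 and 0.864 RPKM in KO313 and 0.275 to 0.356 RPKM in WT. None of the 22 tested PCDHG entries passed (1 lower at an unadjusted p under 0.05, 0 with limma-voom), with differences of -0.19 to -0.11. In the list of cadherins and protocadherins, 12 of 39 passed, 8 of them PCDHA entries that share reads and passed the filter only through KO313. The other passes were PCDH1, higher in KO414, and CDH2, PCDH7 and PCDH9, lower.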

How the data were processed

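The authors deposited 1 table of RPKM values (12 libraries, 22328 symbols). The submitters' processing notes name Trimmomatic and hg19. The labels name an mRNA kit, whereas the methods describe ribosomal RNA removal. Aligner, counter, annotation and strand setting: not given in the sources used here. Together, the 2 clones were tested against WT by the authors, with DESeq2. Behind 100% of the 18698 genes above 0 lay whole numbers (scaled reads, within a tolerance of 1e-06) that sum to 39.29 to 39.34 M in every library, so true depth is unknown and RPKM remained the unit.

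Values were used as log2(RPKM + 0.5) without further scaling. Genes with at least 0.5 RPKM in at least 4 libraries were tested with limma 3.58.1 (R 4.3.3, intensity trend, 3 groups, two-sided, Benjamini-Hochberg adjustment over all 12215 genes). Calls required an adjusted p of 0.05 and a fold of 2. SEs and 95% intervals are limma's, and folds are ratios of mean RPKM. In simulated data over 12215 genes, changes were set on the scale of log2(RPKM + 0.5) with independent normal noise. There the fit found 83.5% of 1.5-fold and 100% of 2.5-fold changes at any fold and called 0.075% of unchanged genes. These rates do not apply to ratios of mean RPKM, which that scale understates for low genes. Alternatives changed the pseudocount, filter, scaling, trend, libraries and model. TP73 was tested by exact permutation. Figures used matplotlib 3.10.9.

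Named genes were the p53 family, the 15 highest and 15 lowest called genes (non-overlapping, mean of at least 1 RPKM, noncoding and unnamed symbols left out), up to 6 switch-like genes per direction, up to 3 per list, 5 per class against WT and 4 per chromosome run (smallest p or largest difference). Other genes, MDM2 and BAX included, were named after their values were seen. The comparison, rules and lists were chosen with earlier results of these data known. RefSeq (GRCh38.p14) gave gene order for 12067 tested genes. Some genes and sequences are not reported here.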

Additional observations from a re-analysis of the deposited data

Results flagged for a closer look

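A library far from the other 3 of its group by Dixon's criterion was found in 7 of 102 groups of 4, over 32 of the called genes with TP63 and TP73. Chance flags about 1 in 20 groups. In KO414, replicate 1 was apart for SLFN13 (2.12 RPKM, others 2.72 to 2.73), SLC16A9 (0.599, others 0.935 to 0.991) and EMP3 (42.9, others 33.1 to 33.6). KO414 replicate 2 was apart for SULT1E1 (0.991, others 0.658 to 0.715). KO313 replicate 1 was apart for TMEM129 (5.79, others 4.59 to 4.65), WT replicate 4 for SULT1E1 (5.89, others 6.34 to 6.37) and WT replicate 3 for TP63 (5.68, others 6.47 to 6.57).

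COL16A1 moved in opposite directions from WT in the clones, with all KO414 libraries above and all KO313 libraries below every WT library. The difference between the clones was 2.39 on the log2 scale by limma (adjusted p = 1.58e-08, n = 4 each).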

How the results depend on the processing

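All 35 called genes kept their direction in each of the 22 alternatives in which they were tested, 33 of them kept an adjusted p under 0.05 (MFSD10 and MIR3613 did not), and 12 kept both limits. The count at the fold of 2 was 100 when the pseudocount was 0.1, 14 when it was 1 and 318 with limma-voom on the whole numbers, which also tests more genes. At any fold change 701 genes passed without the filter on low values, 259 when only the 8 libraries of both clones were fitted and 735 with limma-voom. Leaving out 1 library gave 28 (without KO313 replicate 1) to 42 (without KO414 replicate 1) and, at any fold, 270 (without KO313 replicate 2) to 515 (without KO414 replicate 1). It was 273 without KO313 replicate 4. Higher genes were 17.1% of the calls at the fold of 2, and 28.6% with a pseudocount of 1, 25.2% with limma-voom. At any fold they were 34.1%, and 41.1% after quantile normalization. Looser switch-like limits gave 8 and 13 genes against 4. Chromosome runs numbered 1 with windows of 40 genes, where the chromosome 5 run was lost, and 3 with windows of 15, which added a run of 22 genes on chromosome 15 from TUBGCP5 to TJP1 (median -0.29, 1 gene past the adjusted p).

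The labels number the libraries of each group, but KO414 and KO313 libraries of the same number deviated together only in part (correlations of deviations 0.208, 0.505, 0.028 and -0.086, with 2 of 4 best matched by their own number), so the numbers were not taken as pairs. With a replicate block 37 genes passed both limits and 355 passed at any fold. Counting outside the chromosome 4 stretch, an alternative chosen after seeing the data, left 29 and 377.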

Other observations

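Histone cluster genes were looked at after their values had been seen. Of 69 listed genes with histone cluster symbols, 19 were tested, with means down to 0.39 RPKM in KO414 and 0.184 RPKM in KO313. At any fold change 4 of the 19 passed, all higher in KO414, and the median log2 difference was 0.29. Of all genes tested, 3.36% passed and 1.15% were higher. HIST1H2BK was 10.9 to 15.3 RPKM in KO414, against 5.88 to 7.53 RPKM in KO313 and 7.64 to 9.03 RPKM in WT. HIST1H2BD was 1.17 ± 0.185 RPKM in KO414 and 0.505 ± 0.114 RPKM in KO313 (SD, n = 4 each). Another Schlafen gene, SLFN11, also chosen after its values were seen, was higher in KO414, at 1.39 ± 0.206 RPKM against 0.736 ± 0.0799 RPKM in KO313 and 0.285 ± 0.0702 RPKM in WT, while SLFN13 was lower.

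A few keratin genes jumped between libraries of the same group. KRT4 and KRT75 did not pass, and KRT82 was below the filter. KRT4 was 0.0412 to 0.0684 RPKM in the KO414 libraries, against 0.0480, 0.0617, 7.79 and 9.64 RPKM in the KO313 libraries and 0.0617, 10.6, 9.55 and 0.0137 RPKM in the WT libraries. KRT82 was 20.9 RPKM in KO414 replicate 3 and at most 0.295 RPKM in the other KO414 libraries, and 32.0 RPKM in WT replicate 4. KRT75 was 6.14 RPKM in KO414 replicate 2 and at most 0.188 RPKM in the other KO414 libraries, and 5.86 and 7.19 RPKM in WT replicates 2 and 3.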
